A study of Mus musculus with 12 samples.

Results

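The genes described here are the urea cycle and ammonia-handling genes of the mouse liver: Cps1, Otc, Ass1, Asl, Arg1, Nags, Slc25a15, Gls2 and Glul. They were chosen by name for their known roles, as the rows of the deposited expression table that carry one of these gene names, a rule that uses no expression value. Earlier results of these data were known when the choice was made. The 9 genes held 60 of the 152210 transcripts in the table, which carries 22170 gene names, and each gene was measured as the sum of its transcripts. The values are FPKM, fragment counts that the authors scaled to transcript length and library size, so levels of different genes may be set side by side. The livers came from male C57BL/6J mice that began their diets at 5 weeks of age and ate them for 16 weeks, to an age of 21 weeks. There were 4 groups of 3 mice. The normal diet (ND) group received no addition, the high-fat diet (HFD) group received the fat-rich feed alone, and both remaining groups received that same high-fat feed with an addition. It was 1.5% (w/w) extract of Chrysanthemum morifolium leaves in the CLE group and 0.003% (w/w) luteolin, a flavone that the leaves contain, in the LU group. According to the study's methods the mice were fasted before the livers were taken, and the sequenced livers were picked as representative of larger groups.

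The urea cycle turns ammonia, which is toxic, into urea, and in mammals the complete cycle runs in the hepatocyte. Carbamoyl phosphate synthetase 1 (Cps1) fixes ammonia in the mitochondrion and depends on N-acetylglutamate, which Nags makes. Ornithine transcarbamylase (Otc) then joins carbamoyl phosphate to ornithine, and the carrier Slc25a15 exchanges ornithine and citrulline across the inner mitochondrial membrane. In the cytosol argininosuccinate synthetase (Ass1), argininosuccinate lyase (Asl) and arginase 1 (Arg1) complete the cycle and release urea. These genes are expressed most strongly in hepatocytes near the portal vein, where the liver glutaminase Gls2 frees ammonia from glutamine. A thin layer of hepatocytes around the central vein instead expresses glutamine synthetase (Glul), which binds the ammonia that has passed the cycle.

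Without read counts in the table, library depth is unknown and counting error could not be computed. A 0 may be a failed estimate, since 11 of the 12 livers list albumin at 0, but each of the 9 genes had a value above 0 in all 12. The CLE and LU libraries differed from the ND and HFD libraries in how FPKM was spread along genes. Late-beginning transcripts were those that begin more than 1000 bases downstream of the start of the gene's annotated transcript with the highest mean FPKM. Over 4435 genes, the median share of a gene's FPKM in them was 7.62% to 8.40% in the ND livers and 7.74% to 9.70% in the HFD livers. It was 11.4% to 20.3% in the CLE livers and 13.0% to 16.1% in the LU livers. The highest of these belonged to CLE mouse 4. The libraries also split by GC content. Across 11483 genes, Spearman's rho between a gene's GC content and its level relative to the other livers was -0.37 to -0.14 in the ND and HFD livers and 0.16 to 0.48 in the CLE and LU livers. When CLE or LU is compared with ND or HFD, the group and these properties of the libraries cannot be told apart. In both properties the ND livers overlapped the HFD livers, and the CLE livers overlapped the LU livers. The part of these properties in the results was not tested.

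Among the 4 groups, 3 of the 9 genes differed in a moderated F test, beside 24.4% of the 11566 genes tested. These were Glul (adjusted p = 0.0079), Cps1 (adjusted p = 0.010) and Slc25a15 (adjusted p = 0.021). Otc did not reach the threshold of 0.05 in this test (adjusted p = 0.087), and the adjusted p of the other 5 genes lay between 0.16 and 0.79. Cps1 and Slc25a15 were highest in the ND livers and Glul was lowest there. The order of the levels changed accordingly. In the ND group the sequence from the highest mean FPKM to the lowest was Ass1, Cps1, Arg1, Glul, Asl, Otc, Slc25a15, Gls2 and Nags. In the HFD group Glul stood next to Ass1, above Cps1. In the ND livers Ass1 and Cps1 overlapped in level, as did Arg1 and Glul, Glul and Asl, and Slc25a15 and Gls2, so the order of these neighbours is within the spread between mice. In the HFD livers Slc25a15 and Gls2 were the neighbours that overlapped. In the CLE group Arg1 stood below Glul and above Cps1, and the overlapping neighbours were Ass1 and Glul, Arg1 and Cps1, Cps1 and Asl, Asl and Otc, and Gls2 and Slc25a15. The LU order matched that of CLE except that Slc25a15 was above Gls2, and Arg1 overlapped Cps1 and Slc25a15 overlapped Gls2.

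**Figure D1:**
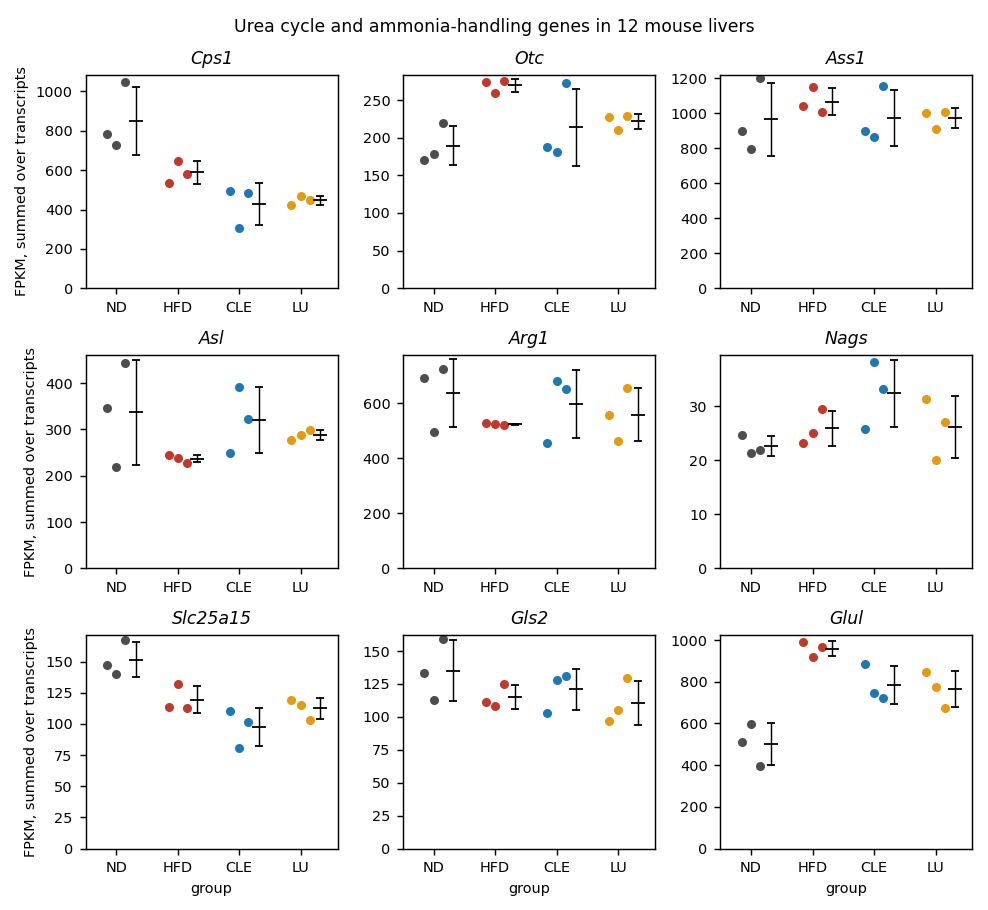
FPKM of the 9 genes (vertical axes from 0, summed over transcripts) in each liver by group, where points are single mice and the bar beside them is the mean with the SD (n = 3). Cps1 and Slc25a15 are highest and Glul lowest in the ND livers, whereas for Ass1 and Arg1 the ND livers overlap each other group.

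The comparison of HFD with ND asked what the high-fat feed alone changed. Of the 9 genes, 2 passed the test, Glul and Otc, and both were higher in HFD. Over all genes tested, 12.1% passed, and with 9 genes a count of 2 is not far from that background. The median difference of the 9 genes was -0.22 on the log2 scale, beside 0.11 over all genes tested. Of all genes called in this comparison 82.6% were higher in HFD, a share that was 55.2% after median-of-ratios scaling of the libraries and 55.7% after quantile normalization. Under median-of-ratios scaling 3 of the 9 genes were called, beside 1124 of all 11566 genes tested. These were Glul (higher) and Cps1 and Slc25a15 (both lower, each with an adjusted p of 0.046), while Otc was not called (adjusted p = 0.195).

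The comparisons of CLE and of LU with HFD asked what each addition changed in mice on the fat-rich feed, and these share the 3 HFD livers. None of the 9 genes passed limma's test in either. With CLE, 6.03% of all genes tested passed after adjustment. An unadjusted p under 0.05 was found for 3 of the 9, namely Cps1, Otc and Slc25a15. It was found for 3407 of all 11566 genes tested, so the 3 do not stand out from that background. With LU, 1.03% of all genes passed after adjustment. None of the 9 had an unadjusted p under 0.05, beside 2346 of the 11566 genes. The differences between LU and HFD ran from -0.39 for Cps1 to 0.28 for Asl on the log2 scale, and their 95% intervals reached from -0.80 to 0.74, so differences of that size remain possible. CLE and LU themselves were compared with each other as well. None of the 9 genes passed, and 0.00865% of all genes (1 gene) passed. None of the 9 had an unadjusted p under 0.05, beside 508 of the 11566 genes. The 9 differences between CLE and LU lay between -0.22 and 0.31, with 95% intervals reaching from -0.50 to 0.68.

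The comparisons of CLE and of LU with ND showed how far the supplemented livers stood from the normal diet, and both use the same 3 ND livers. Cps1 and Slc25a15 were lower and Glul was higher in each. That is 3 of 9 genes beside 27% of all genes tested for CLE, and 3 of 9 beside 14.9% for LU. The median difference of the 9 genes was -0.04 for CLE, where the median over all genes was 0.16, and -0.17 for LU, where it was 0.12. Of all called genes 77.5% were higher in CLE than in ND and 74.7% were higher in LU, and these shares were 43.0% and 40.7% under median-of-ratios scaling. Cps1 and Slc25a15 remained lower, and Glul higher, under that scaling, although Glul in LU then had an adjusted p of 0.055.

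**Figure D2:**
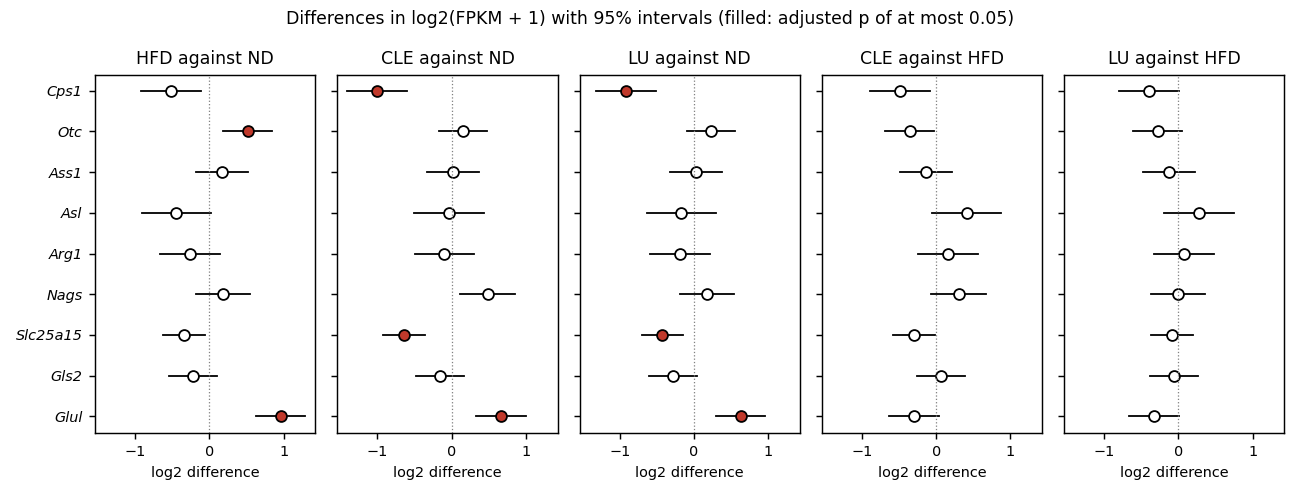
Difference of each gene in log2(FPKM + 1) between groups (horizontal axis), with 95% intervals from the fit across all genes; filled points passed at an adjusted p of 0.05. Glul is filled in all 3 comparisons with ND, Cps1 and Slc25a15 in CLE and LU against ND, and no gene is filled in CLE or LU against HFD.

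Cps1, which lies on chromosome 1 (67123026 to 67231259, plus strand, GRCm38), catalyzes the entry step of the cycle. Its FPKM was 781, 726 and 1048 in the ND livers and 535, 647 and 582 in the HFD livers. In the CLE livers it was 494, 308 and 483, and in the LU livers it was 422, 470 and 446. Every ND liver was thus higher than any of the other 9. The means were 852 ± 173 in ND, 588 ± 56.5 in HFD, 428 ± 105 in CLE and 446 ± 24.3 in LU (SD, n = 3 each), which places CLE at 50.3% and LU at 52.4% of the ND mean. The fitted Cps1 level was 0.499 times that of ND in CLE (SE 0.19 on the log2 scale, adjusted p = 0.0044) and 0.531 times in LU (log2 difference -0.91, SE 0.19, adjusted p = 0.011). Between HFD and ND the difference was -0.52 (SE 0.19), which did not pass (adjusted p = 0.090) although the groups did not overlap. The CLE livers did not overlap the HFD livers either, yet the difference of -0.48 (95% interval -0.89 to -0.08) did not pass (adjusted p = 0.11).

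The Cps1 transcripts differed between libraries. In the ND and HFD livers at least 99.6% of Cps1 FPKM lay in the full-length transcripts. Assembled transcripts that begin inside the gene, more than 1000 bases downstream, held 0.244%, 35.9% and 2.61% in the CLE livers and 6.95%, 11.1% and 0.496% in the LU livers. CLE mouse 4, the liver with the lowest Cps1, had the largest such share. Without this mouse Cps1 in CLE was -0.78 from ND (adjusted p = 0.011), Slc25a15 was -0.51 (adjusted p = 0.018) and Glul was 0.70 (adjusted p = 0.025), so these calls remained.

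Nags, on chromosome 11 (102145513 to 102149477, plus strand), makes the N-acetylglutamate that Cps1 needs, and its level was far below those of the other 8 genes, between 20.0 and 38.2 FPKM. Its means were 22.7 ± 1.77 in ND, 25.9 ± 3.25 in HFD, 32.4 ± 6.20 in CLE and 26.1 ± 5.71 in LU (SD, n = 3 each). The 3 CLE livers were all above the 3 ND livers, and the difference of 0.48 (SE 0.17) did not pass (adjusted p = 0.051). Corrected for the GC content and length of each gene, a correction chosen after the data were seen, that difference was 0.095 (adjusted p = 0.687). It passed when the filter was raised to a mean of 5 FPKM (0.48, adjusted p = 0.0484) and without CLE mouse 2 (0.63, adjusted p = 0.0174). A transcript annotated as a processed, noncoding one held most of the Nags FPKM, between 71.2% and 87.7% in every liver, so the sum is not a measure of the coding transcript alone.

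Slc25a15, also known as the ornithine carrier ORC1, lies on the minus strand of chromosome 8 (22375551 to 22398597 in the GENCODE M21 annotation). Its FPKM was 148, 140 and 167 in the ND livers and 114, 132 and 112 in the HFD livers. In the CLE livers it was 110, 80.5 and 102, and in the LU livers it was 120, 115 and 103. As with Cps1, each ND liver exceeded each of the other 9. The means were 152 ± 13.9, 119 ± 10.9, 97.5 ± 15.3 and 113 ± 8.44 in ND, HFD, CLE and LU (SD, n = 3 each). The log2 difference from ND was -0.64 (SE 0.13, adjusted p = 0.0065) in CLE. In LU it was -0.42 (SE 0.13, adjusted p = 0.045), a call that was lost when any of the 6 mice compared was left out (-0.48 to -0.35). In HFD it was -0.34 and did not pass (adjusted p = 0.11), with no overlap between the groups.

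The deposited transcripts of Slc25a15 begin at different places, and RefSeq lists 2 starts for the gene. As deposited, the annotated transcript and an assembled one begin at 22398621, exactly on the upstream RefSeq start. This position lies just outside the GENCODE M21 bounds given above. Assembled transcripts begin at 22398279, 2 bases from the downstream RefSeq start, and at 22398307. The windows around both starts, 250 bases before to 50 after, are shown because the balance between the starts differed among the livers. They come from RefSeq on GRCm38.p6, run 5′ to 3′ along the minus strand, and carry the letters GGGCGG (GC box, either strand) in capitals. The upstream window is chr8:22398572-22398871 and the downstream one chr8:22398228-22398527.
Slc25a15 upstream start: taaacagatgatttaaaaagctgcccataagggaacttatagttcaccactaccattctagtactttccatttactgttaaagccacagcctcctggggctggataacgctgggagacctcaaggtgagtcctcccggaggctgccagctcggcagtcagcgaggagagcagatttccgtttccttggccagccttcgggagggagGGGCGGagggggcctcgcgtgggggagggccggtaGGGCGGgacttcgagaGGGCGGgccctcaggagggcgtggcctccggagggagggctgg
Slc25a15 downstream start: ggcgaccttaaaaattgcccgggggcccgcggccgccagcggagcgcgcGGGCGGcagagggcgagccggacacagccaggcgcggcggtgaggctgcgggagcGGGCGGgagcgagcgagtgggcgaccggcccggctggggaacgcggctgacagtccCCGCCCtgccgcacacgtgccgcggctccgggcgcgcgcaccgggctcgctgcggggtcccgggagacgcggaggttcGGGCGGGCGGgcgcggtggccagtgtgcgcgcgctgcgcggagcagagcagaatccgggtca

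The GC box letters occurred 3 times in the upstream and 5 times in the downstream window, where 2 of the matches overlap. Of all 32851 promoter windows of this length, 35.7% hold at least 1 match. G and C made up 60.7% of the upstream and 79% of the downstream window, and neither held the other letters searched on both strands. These were the TATA box (TATAAA), which 13.6% of all windows hold, and the CCAAT box, which 37.4% hold. The TCF/LEF motif (CTTTGAT) is held by 3.73% of the windows. The cyclic AMP response element (TGACGTCA) is held by 1.79%.

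Transcripts from the downstream start held 20.2%, 22.9% and 12.5% of Slc25a15 FPKM in the ND livers and 28.6%, 16.8% and 34.5% in the HFD livers. Their share was 38.0%, 65.2% and 50.8% in the CLE livers and 52.6%, 57.9% and 45.7% in the LU livers. All CLE and LU livers were therefore above all ND and HFD livers in this share. In absolute level the upstream-start transcripts amounted to 124 ± 19.8 FPKM in ND, 88.3 ± 19.0 in HFD, 48.8 ± 20.2 in CLE and 53.8 ± 4.53 in LU. The downstream-start transcripts amounted to 27.6 ± 5.89, 31.2 ± 8.35, 48.7 ± 5.98 and 58.9 ± 10.4 FPKM (SD, n = 3 each). This sum joins 2 transcripts of Slc25a15 with opposite patterns. The one from 22398279 was at 3.25 to 15.5 FPKM in the ND livers, 2.59 to 23.2 in HFD and 33.6 to 60.9 in CLE and LU. The one from 22398307 was at 15.2 to 17.7 FPKM in the ND livers, 11.3 to 19.6 in HFD and 3.95 to 8.23 in CLE and LU. The annotated transcript taken alone was -1.43 from ND in CLE (adjusted p = 0.0084) and -1.22 in LU (adjusted p = 0.0178), beside -0.64 and -0.42 for the sum. These shares follow the library medians of late-beginning transcripts given above, and whether they reflect a change of start site was not tested.

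Otc, on the X chromosome (10252305 to 10321024, plus strand), encodes the enzyme that makes citrulline. Its FPKM was 171, 179 and 219 in the ND livers and 274, 260 and 275 in the HFD livers. In the CLE livers it was 187, 181 and 273, and in the LU livers it was 227, 210 and 228. All HFD livers were above all ND livers, whereas CLE mouse 11 was at the HFD level and both other CLE mice were near ND. Otc was higher by 0.51 on the log2 scale (SE 0.15, adjusted p = 0.042) in HFD than in ND. This call was lost without ND mouse 2, ND mouse 3 or any of the HFD mice, at adjusted p between 0.0832 and 0.163. CLE differed from HFD by -0.36 (95% interval -0.68 to -0.03, adjusted p = 0.14), and without CLE mouse 11 by -0.55 (adjusted p = 0.040). LU differed from HFD by -0.28 (95% interval -0.61 to 0.04).

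Ass1, Asl and Arg1, the cytosolic enzymes, passed in none of the 6 comparisons of groups. Ass1, the most abundant of the 9 genes in each group, ranged from 797 to 1198 FPKM over the 12 livers, and its group means lay between 964 and 1065. Asl ranged from 219 to 444 FPKM, and the ND livers alone covered that whole span. The HFD livers held 228 to 245 FPKM of Asl, and the difference from ND was -0.45 (95% interval -0.91 to 0.02). ND mouse 3 was the lowest of the 12, and without it this difference was -0.73 (adjusted p = 0.0235). Arg1 ranged from 455 to 724 FPKM and was nearly equal in the HFD livers, at 527, 524 and 523. In CLE mouse 4 an assembled transcript with a longer 5′ end held 43.8% of Arg1 FPKM, a share that was at most 2.86% in the other 11 livers.

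Glul, on chromosome 1 (153899944 to 153909723, plus strand), encodes glutamine synthetase, the pericentral ammonia trap. Its FPKM was 510, 595 and 394 in the ND livers and 990, 920 and 968 in the HFD livers. In the CLE livers it was 886, 744 and 720, and in the LU livers it was 849, 772 and 676. The lowest of the 9 livers on the fat-rich feed was above the highest ND liver, and the HFD livers were above all CLE and LU livers. The means were 500 ± 101 in ND, 959 ± 36.0 in HFD, 783 ± 89.7 in CLE and 766 ± 86.4 in LU (SD, n = 3 each). HFD was higher than ND by 0.96 on the log2 scale (SE 0.15, adjusted p = 0.0020), a 1.94-fold level, and this call was kept in all 17 alternative settings. The differences from ND were 0.66 (SE 0.15, adjusted p = 0.011) in CLE and 0.63 (SE 0.15, adjusted p = 0.021) in LU. The LU call was lost without ND mouse 2, ND mouse 4, LU mouse 2 or LU mouse 3, at adjusted p from 0.054 to 0.0824. Against HFD, Glul differed by -0.30 (95% interval -0.63 to 0.04, adjusted p = 0.21) in CLE and by -0.33 (95% interval -0.66 to 0.0046, adjusted p = 0.25) in LU, so the lower levels in the supplemented mice were not separated from HFD by the test. The promoter window of Glul on GRCm38.p6 (chr1:153899679-153899978, plus strand, RefSeq) is shown because Glul is the member with the smallest adjusted p, with CCAAT and GGGCGG in capitals.
Glul: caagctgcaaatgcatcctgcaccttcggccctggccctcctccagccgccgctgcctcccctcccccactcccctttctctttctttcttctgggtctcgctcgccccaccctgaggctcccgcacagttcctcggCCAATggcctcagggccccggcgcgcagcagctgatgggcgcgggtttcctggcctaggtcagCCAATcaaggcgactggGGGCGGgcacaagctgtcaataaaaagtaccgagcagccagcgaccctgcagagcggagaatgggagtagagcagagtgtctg

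This window has CCAAT on the given strand at -113 and -50 from the start and GGGCGG at -33. It held none of the other 3 motifs searched.

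Gls2, on chromosome 10 (128194457 to 128210004, plus strand), encodes the glutaminase of the liver. Summed over its 15 transcripts, it was 134, 113 and 159 FPKM in ND, 111, 109 and 125 in HFD, 103, 128 and 131 in CLE, and 97.1, 105 and 129 in LU. These groups overlapped and no comparison passed. The transcripts beneath the sum differed, however. The full-length coding transcript was at 115, 100 and 143 FPKM in the ND livers and at 71.7, 94.3 and 94.3 in the HFD livers. It was at 67.5, 35.3 and 53.0 FPKM in the CLE livers and at 48.2, 39.1 and 79.5 in the LU livers. All ND livers were above the others. A transcript from the 3′ part of the gene with a retained intron was at 0.746 FPKM or less in the ND livers and at 28.3, 0.877 and 7.51 in the HFD livers. In the CLE livers it was at 16.7, 72.2 and 60.8 FPKM, and in the LU livers it was at 40.1, 56.8 and 28.0. Tested on its leading transcript alone, Gls2 was lower than ND by -1.22 in CLE (adjusted p = 0.0155) and by -1.14 in LU (adjusted p = 0.0251). The summed Gls2 passed with the GC and length correction (-0.46, adjusted p = 0.0495 in CLE against ND and -0.54, adjusted p = 0.0409 in LU against ND). The result for Gls2 thus differed between the plain sum and these settings, and the part of the library property described above was not tested.

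**Figure D3:**
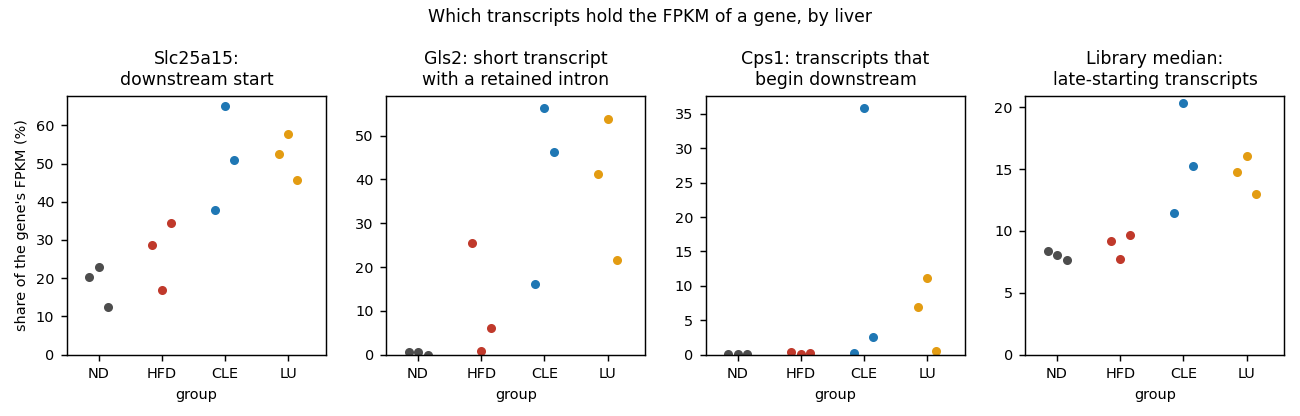
Share of FPKM (%, vertical axes from 0) in each liver for the Slc25a15 transcripts from the downstream start, the Gls2 transcript with a retained intron and the Cps1 transcripts that begin downstream, beside the median share of late-beginning transcripts over 4435 genes. Points are single mice, and the CLE and LU livers lie above the ND livers in each panel.

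Ratios within a liver cancel a scale factor common to its genes. Cps1 to Glul was 1.22 to 2.66 in the ND livers, 0.540 to 0.704 in HFD, 0.413 to 0.671 in CLE and 0.497 to 0.660 in LU, so that Cps1 exceeded Glul in each ND liver and in no other. Cps1 to Ass1 was 0.871 to 0.910 in the ND livers and 0.356 to 0.580 in the other 9. Otc to Cps1 was 0.209 to 0.247 in the ND livers and 0.379 to 0.587 elsewhere. Slc25a15 to Otc, the carrier relative to the enzyme it serves, was 0.764 to 0.865 in the ND livers and 0.373 to 0.588 elsewhere. In these 4 ratios the 9 livers on the fat-rich feed did not overlap the ND livers. Cps1 and Slc25a15 were highest and Glul lowest in every ND liver, so the separation in Cps1 to Glul follows from those levels. Cps1 is part of each of these ratios but Slc25a15 to Otc. They restate the levels of these genes and are not further evidence. The ratio of Gls2 to Glul did overlap, at 0.189 to 0.404 in the ND livers, 0.112 to 0.129 in HFD, 0.117 to 0.182 in CLE and 0.114 to 0.191 in LU.

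Because Glul marks pericentral hepatocytes and Cps1 is mostly periportal, further genes of both zones were examined. Their lists, too, were chosen with earlier results of these data known. In HFD against ND, 6 of 11 pericentral genes were higher and none was lower, with a median difference of 0.78. This count stands beside 12.1% of all tested genes. None of the 7 periportal genes was higher and 1 was lower, with a median difference of 0.11, the same as that of all genes tested. Lect2, a secreted hepatocyte protein, rose most among the pericentral genes, by 1.41 (SE 0.15, adjusted p = 0.00011), from 69.5 to 72.9 FPKM in ND to 174 to 220 FPKM in HFD. Lgr5, a receptor that strengthens Wnt signaling, was higher by 1.15 (adjusted p = 0.00096) and Rnf43, a Wnt-induced ubiquitin ligase, by 0.92 (adjusted p = 0.012). Axin2 and Tbx3 of the same list were not called. Axin2 was at 1.56 to 6.05 FPKM in ND and 4.44 to 6.41 in HFD, and Tbx3 at 6.15 to 17.1 and 14.5 to 15.5. Cyp2e1, Oat and Gulo were not called either. Cyp1a2, a xenobiotic-metabolizing enzyme, was higher by 1.16 (adjusted p = 0.012). The glutamate transporter Slc1a2 was higher by 0.78 (adjusted p = 0.026) and the ammonium transporter Rhbg by 1.08 (adjusted p = 0.0039), although 51.6% of the FPKM under the name Rhbg belongs to neighbouring genes. The lower periportal gene was Pck1, the rate-limiting enzyme of gluconeogenesis (-0.67, adjusted p = 0.019), and it did not pass on its leading transcript (adjusted p = 0.0537). With 1 mouse left out 0 to 1 periportal genes were called lower. With 1 mouse left out, 3 to 6 of the 11 pericentral genes were called. After median-of-ratios scaling 5 were, beside 1124 of all 11566 genes tested. Bulk livers cannot tell a larger pericentral zone from more RNA per pericentral cell.

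In CLE and LU against ND, 5 of the 11 pericentral genes were higher in each, beside 27% and 14.9% of all tested genes called. None of the 7 periportal genes was called in either. Cyp1a2, Lgr5, Lect2 and Slc1a2 were among the 5 in both, joined by Rnf43 in CLE (0.95, adjusted p = 0.0079) and by Cyp2e1, a pericentral cytochrome P450, in LU (0.53, adjusted p = 0.039). Under median-of-ratios scaling 4 of the 11 pericentral genes were called in CLE and 2 in LU, and 1 periportal gene was called lower in each. Of all 11566 genes tested, 2837 were called in CLE and 1741 in LU under that scaling, so the count in LU is near its background. Against HFD, Lect2 was lower in CLE (-0.64, adjusted p = 0.036), and so was the periportal Aldh1b1 (-1.16, adjusted p = 0.035), a mitochondrial aldehyde dehydrogenase. LU against HFD had no call in either list. The median difference of the 7 periportal genes from HFD was -0.42 in CLE and -0.47 in LU. For the pericentral genes it was -0.05 and -0.19, and over all genes 0.016 and -0.0165. With 1 mouse left out, 0 to 3 periportal genes were called lower in LU against HFD.

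**Figure D4:**
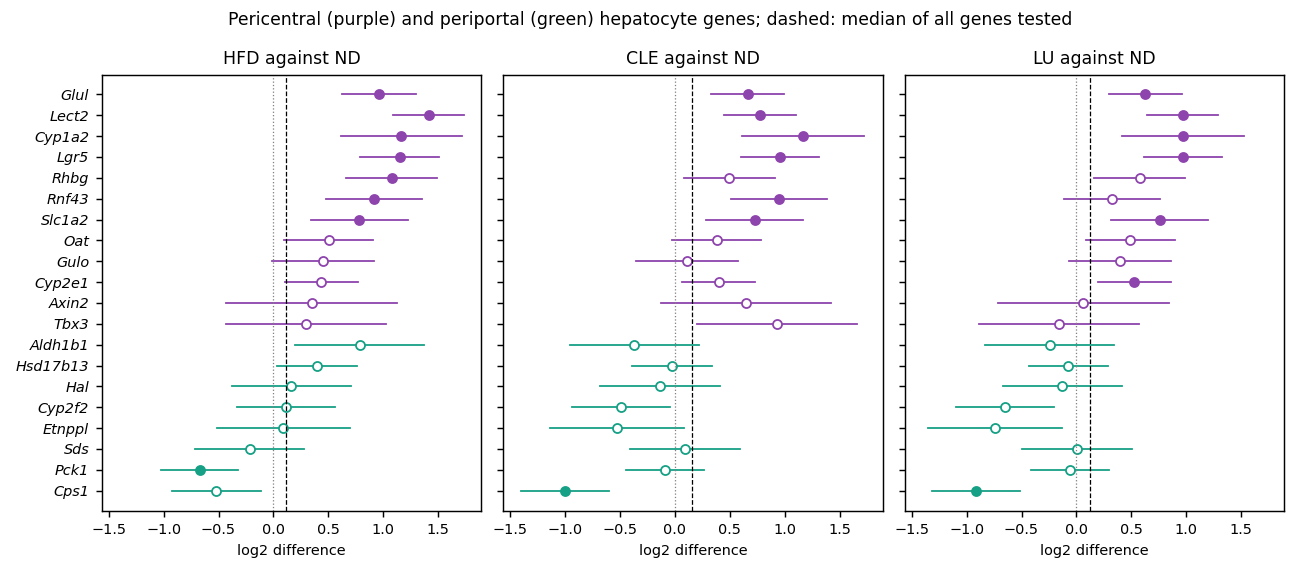
Difference in log2(FPKM + 1) from ND with 95% intervals for Glul and 11 pericentral genes (purple) and for 7 periportal genes and Cps1 (green) in HFD, CLE and LU. Filled points passed at an adjusted p of 0.05, and the dashed line is the median of all genes tested. The filled purple points lie to the right of the dashed line, and the filled green points are Pck1 in HFD and Cps1 in CLE and LU.

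Genes that move glutamate, glutamine and ammonium were read next. In HFD against ND, 3 of 13 tested were higher (Glud1, Slc1a2 and Rhbg) and 1 was lower (Got1), with a median difference of 0.13 beside 0.11 over all genes. Slc1a2 and Rhbg also belong to the pericentral list above, so these are the same calls. Among all tested genes, 12.1% passed in HFD against ND and 6.03% in CLE against HFD. Glud1, glutamate dehydrogenase, which releases or binds ammonia in the mitochondrion, rose from 431, 441 and 415 FPKM in ND to 643, 765 and 579 in HFD (0.62, SE 0.17, adjusted p = 0.034). It did not pass after median-of-ratios scaling (adjusted p = 0.13), nor did Slc1a2 (adjusted p = 0.0812), so that 1 of the 13, Rhbg, was then called higher, as also after quantile normalization and with the GC and length correction. With 1 mouse left out 1 to 2 were called higher. In the CLE livers Glud1 was at 450, 312 and 439 FPKM, lower than in HFD by -0.73 (adjusted p = 0.035). Got1, the cytosolic aspartate aminotransferase, fell from 298, 247 and 348 FPKM in ND to 135, 112 and 118 in HFD (-1.27, SE 0.21, adjusted p = 0.0022). It was lower than ND also in CLE (-1.23, adjusted p = 0.0030) and LU (-0.84, adjusted p = 0.022). In CLE against HFD the mitochondrial glutamate carrier Slc25a22 (1.19, adjusted p = 0.019) and the glutamine transporter Slc1a5 (0.72, adjusted p = 0.029) were higher. The Slc1a5 level was low, at 3.91 FPKM or less in every liver.

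Of 9 tested genes that support the cycle or carry its substrates, 1 was lower in HFD against ND. It was Odc1, ornithine decarboxylase, which draws ornithine into polyamine synthesis (-0.75, SE 0.12, adjusted p = 0.0023), and the median difference of the list was 0.04. In CLE and in LU against ND 2 of the 9 were lower, Odc1 (-0.51, adjusted p = 0.013 and -0.40, adjusted p = 0.048) and Slc25a13, the aspartate-glutamate carrier that supplies aspartate to Ass1. Slc25a13 was at 117, 125 and 123 FPKM in ND, 85.4, 96.4 and 86.6 in HFD, 98.2, 59.8 and 74.1 in CLE, and 84.6, 76.8 and 84.5 in LU. It was lower than ND by -0.68 in CLE (adjusted p = 0.0083) and by -0.57 in LU (adjusted p = 0.025). Its difference in HFD was -0.44 (adjusted p = 0.067), which passed after median-of-ratios scaling (-0.60, adjusted p = 0.025). Neither of the supplemented groups had a call against HFD in this list. Beside these counts, 12.1% of all tested genes passed in HFD, 27% in CLE and 14.9% in LU against ND.

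Among 26 tested genes of amino acid breakdown, 2 were higher in HFD than in ND, 1 was lower and the other 23 were not called (median difference 0.01). Prodh, proline dehydrogenase, was higher by 1.06 (adjusted p = 0.0027) and Asrgl1, an asparaginase, by 0.68 (adjusted p = 0.014). Agxt, which transfers the amino group of alanine to glyoxylate, was lower by -0.63 (adjusted p = 0.0080). In CLE against ND 5 were higher and 1 lower, and in LU against ND 4 were higher and 2 lower. The shares of all tested genes that passed were 12.1% in HFD, 27% in CLE and 14.9% in LU against ND, and 6.03% in CLE against HFD. Prodh was higher by 1.04 in both (adjusted p = 0.0035 and 0.0053) and Prodh2 by 0.74 and 0.66 (adjusted p = 0.014 and 0.033). Kynu, kynureninase of the tryptophan pathway, was lower by -0.85 and -0.78 (adjusted p = 0.0083 and 0.018). The split in CLE against ND turned to 3 higher and 5 lower under median-of-ratios scaling, where 2837 of all 11566 genes tested were called. In CLE against HFD the branched-chain aminotransferase Bcat2 was higher (0.61, adjusted p = 0.022) and Asrgl1 lower (-0.58, adjusted p = 0.045).

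Among 12 regulators of urea cycle genes or of Glul, none passed in HFD against ND (median difference 0.04) or LU against HFD. The calls in the other comparisons stand beside 27% of all tested genes in CLE against ND, 14.9% in LU against ND and 6.03% in CLE against HFD. Creb1, a cAMP-responsive factor, was lower in CLE than in HFD (-0.45, adjusted p = 0.049) and lower than in ND in both supplemented groups (-0.35, adjusted p = 0.0486 in CLE and -0.39, adjusted p = 0.0499 in LU). In CLE against ND the glucagon receptor Gcgr was also higher (0.46, adjusted p = 0.044) and the glucocorticoid receptor Nr3c1 lower (-0.43, adjusted p = 0.037), and in LU against ND the factor Cebpb was higher (0.82, adjusted p = 0.044). Both higher calls were lost after median-of-ratios scaling (adjusted p = 0.193 for Gcgr and 0.0756 for Cebpb), quantile normalization (0.0774 and 0.068) and the GC and length correction (0.663 and 0.156). Creb1 against ND passed under both scalings but not with that correction (adjusted p = 0.171 in CLE and 0.206 in LU). Without CLE mouse 4, none of the listed genes of the glutamate, support, amino acid breakdown, regulator or zone lists passed in CLE against HFD, and the calls over all genes went from 698 to 55. Without HFD mouse 12, 15 or 18 they went to 61, 28 or 93, without CLE mouse 11 to 419 and without CLE mouse 2 to 2190.

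Markers of some other liver cells were higher on the fat-rich feed. The share of all tested genes that passed in HFD against ND was 12.1%. Of the 6 stellate cell markers 4 were higher in HFD than in ND, and their summed level was 16.4 to 22.4 FPKM in ND, 38.7 to 47.1 in HFD, 27.8 to 64.0 in CLE and 35.1 to 44.9 in LU. With 1 mouse left out 1 to 4 of the 6 were called, after quantile normalization 2 and on leading transcripts 1. Of 5 macrophage markers 2 were higher in HFD, with summed levels of 53.0 to 64.4 FPKM in ND, 69.3 to 96.5 in HFD, 81.2 to 104.8 in CLE and 59.0 to 97.7 in LU. Of 5 endothelial markers 1 was higher in HFD, and 0 after median-of-ratios scaling or quantile normalization, while 0 of 3 tested cholangiocyte and 0 of 2 tested lymphocyte markers were called. The 5 endothelial markers summed to 63.5 to 74.8 FPKM in ND and 80.1 to 111.1 in the other livers. The 5 cholangiocyte markers summed to 18.4 to 41.3 and 36.3 to 101.4, and the 3 lymphocyte markers to 2.62 to 4.54 and 2.61 to 4.46. Spp1 made up most of the cholangiocyte sum, at 17 to 38.8 FPKM in ND and 34.5 to 97.9 in the other livers. Krt19, Krt7, Epcam and Sox9 were at most 2.07 FPKM in any liver. Adipocyte markers summed to at most 1.27 FPKM in any liver, at 0.827 to 1.27 in the LU livers and at most 0.172 in the others. None of the 8 hepatocyte markers passed between HFD and ND, but albumin, listed at 0 in nearly all livers, could not be tested in effect, and the values under Tf come from the transferrin locus and its neighbours. With the GC and length correction Apoa1, an apolipoprotein, was lower in HFD (-0.70, adjusted p = 0.0146). The sum of the 8 markers was 18970 to 21600 FPKM in those 6 livers. The part of these cells in the differences of the 9 genes was not tested.

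The genes whose levels ran most closely with each member were found by Pearson's r of log2(FPKM + 1) over the 12 livers, which share the 4 groups and the library property above, and these values are a description. Cps1 ran with Enox2 (r = 0.97), Arl5b (0.96) and Fgf1 (0.95). Slc25a15 ran with Arl5b (0.95), with Ankrd33b (0.93) and with Cps1 (0.94), the entry enzyme of the cycle. Glul ran with E2f1 (0.95), Cyp2a5 (0.94) and Adora1 (0.94), and Nags with Porcn (0.97) and Csrnp2 (0.91). Otc ran with Nit2 (0.91), Atg4a (0.90) and Ap3m1 (0.90), Ass1 with Tat (0.85), Klf3 (0.85) and Mdh1 (0.82), and Asl with Atg16l2 (0.89), Aass (0.88) and Kin (0.87). Arg1 ran with Clp1 (0.87), Zfp189 (0.84) and Asl (0.83), and Gls2 with 4921531C22Rik (0.86), Lrig2 (0.82) and Arg1 (0.82).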

How the data were processed

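The authors extracted liver RNA from 3 mice a group, sequenced paired reads of 100 bases and deposited FPKM per transcript. Per the submitters' processing notes, CASAVA 1.8.2, Bowtie2 2.2.3, TopHat2 2.0.12 and Cufflinks 2.2.1 were used. The table also holds transcripts assembled over 30 samples, and the build is not given in the sources used here. Of its 76916 known transcripts, 87.6% have the ends of GENCODE M21 (GRCm38), whose coordinates are printed. The labels write CLL for CLE in sample names.

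FPKM was summed by gene name. Differences were tested with limma 3.58.1 in R 4.3.3 on log2(FPKM + 1), with the variance trend and all 12 mice in 1 fit (12.8 degrees of freedom), so fold changes of low genes are understated. Genes averaging 0.5 FPKM or more over the livers were tested (11566), at a Benjamini-Hochberg adjusted p of 0.05. The members and gene lists were chosen with earlier results of these data known. Of the other lists, named are called genes, at most the 4 largest changes per list and comparison, all called zone genes, and the 3 genes of highest r per member, of which 1 is not reported here. Some values per transcript were chosen after they were seen. Car5a, Gpt, Aldh4a1, Adgre1 and Cd79a had no row under those names. RefSeq promoter windows were found for 5 of the 9 members, not for Cps1, Asl, Arg1 or Gls2. The test was checked on simulated data. Alternatives were a pseudocount of 0.1, no filter, a minimum of 5 FPKM, median-of-ratios scaling, quantile normalization, 2 groups alone, no variance trend, the leading transcript, matching transcripts alone, each mouse left out, a replicate block and, added later, M21 symbols and a GC and length correction.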

Additional observations from a re-analysis of the deposited data

How the results depend on the processing

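Of 936 values of single members under alternatives, 850 kept their direction and their side of the threshold, 26 no longer passed, 12 newly passed and 48 changed direction; causes were not tested. The calls of Glul in HFD against ND and of Cps1 in CLE and LU against ND passed in every alternative run. Of the 9 genes, 1 rather than 2 was called in HFD against ND without a filter, after quantile normalization and on leading transcripts. With 1 mouse left out, 1 to 2 were called in HFD against ND, 0 to 1 in CLE against HFD and 1 to 2 in LU against ND. With 3 mice a group, small differences cannot be resolved, and depth is unknown. A fit with the replicate number as a block called 1 gene (Cps1) in each of CLE and LU against ND. Slc25a15 and Glul then had adjusted p of 0.0987 and 0.0962 in CLE. The differences in this fit rest only on numbers found in both groups, which are 2 and 4 for CLE and 2 and 3 for LU. Deviations of same-numbered mice correlated at -0.259 and -0.096 (CLE and ND), 0.086 and 0.183 (LU and ND) and -0.173 (CLE and LU), so these mice share a number and no pairing was assumed. Over all genes the block fit, which rests on fewer mice, called 1061 rather than 3119 in CLE against ND and 847 rather than 1727 in LU against ND.

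Changes of direction were among differences that did not pass. On leading transcripts, Arg1 was -0.1137 and Gls2 -0.77 in CLE against HFD, Nags was 0.0246 in LU against HFD, and Arg1 was -0.1751 and Gls2 -0.0804 in CLE against LU. With the GC and length correction, Gls2 was -0.1047 in CLE against HFD, Slc25a15 0.0322 in LU against HFD, Ass1 -0.2865 in CLE and -0.2329 in LU against ND, and Nags -0.1458 in LU against ND. After median-of-ratios scaling, Nags was 0.0248 in LU against HFD, Otc -0.018 and Ass1 -0.1531 in CLE against ND, Ass1 -0.0994 in LU against ND, and Glul -0.0104 in CLE against LU. After quantile normalization, Nags was 0.0192 in LU against HFD and Glul -0.0147 in CLE against LU. With the block, Otc was -0.0707 and Ass1 -0.2368 in CLE against ND, and Asl 0.0327 in LU against ND. With 1 mouse left out, the ranges in LU against HFD were -0.0456 to 0.2034 for Arg1, -0.1415 to 0.1688 for Nags and -0.1809 to 0.0233 for Gls2. In CLE against ND they were -0.034 to 0.2625 for Otc, -0.1107 to 0.1882 for Ass1, -0.3159 to 0.1921 for Asl and -0.2692 to 0.0862 for Arg1. In LU against ND they were -0.0952 to 0.1986 for Ass1 and -0.4489 to 0.059 for Asl. In CLE against LU they were -0.2089 to 0.1328 for Cps1, -0.2664 to 0.03 for Otc, -0.1416 to 0.0682 for Ass1, -0.0215 to 0.3024 for Asl, -0.0402 to 0.2714 for Arg1 and -0.0589 to 0.11 for Glul.

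Calls over all genes were 645 on leading transcripts and 656 to 1133 with 1 mouse left out in HFD against ND. In CLE against HFD they were 127 without a filter, 1095 after quantile normalization, 91 in a fit of 2 groups alone, 263 on leading transcripts, 465 with the GC and length correction and 28 to 2190 with 1 mouse left out. In LU against HFD they were 57 without a filter, 262 with 2 groups alone and 11 to 213 with 1 mouse left out. In CLE against ND they were 1809 with 2 groups alone and 1594 to 3681 with 1 mouse left out, and in LU against ND 640 to 1082 with 1 mouse left out. In CLE against LU they were 3 without a filter, 0 at a minimum of 5 FPKM and 2 after quantile normalization or on leading transcripts.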
